A study of Xenopus laevis with 17 samples.

Results

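The core genes of centriole assembly were followed in frog embryonic tissue that had been driven to make multiciliated cells. The members were 10 symbols: PLK4, SASS6, STIL, CENPJ, CEP152, CEP63, CCDC67, CCDC78, CEP192 and CEP135. Every gene model whose name began with a member symbol was taken, which gave 13 models of the 24383 in the files, and 10 of their 13473 distinct symbols. PLK4, SASS6 and CEP152 had 2 models each and the other 7 symbols had 1. All 13 models passed the filter on low counts and were tested.

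The tissue was the animal cap of Xenopus laevis, ectoderm that forms embryonic skin when cultured alone. Caps were dissected at stage 10, and 20 caps were used per RNA condition. Every RNA library came from caps given mRNA for Multicilin-HGR, a Multicilin fusion to the hormone-binding part of the glucocorticoid receptor, so all groups share forced Multicilin activity. Dexamethasone at 20 µM switched the fusion on at mid-stage 11, and caps were collected 9 h later at 22 °C, which corresponds to stage 18. The control group received Multicilin alone (n = 3). The Foxj1 CRISPR group also received Cas9 protein with a foxj1 guide RNA (n = 2), and the Foxn4 CRISPR group Cas9 protein with a foxn4 guide RNA (n = 2). The Foxn4 morpholino group received an antisense oligonucleotide against foxn4 (n = 2). The labels give no editing efficiency, so the share of cells that still made Foxj1 or Foxn4 is not known here. A further pair of libraries held chromatin immunoprecipitation (ChIP-seq) of a Foxn4-GFP-HGR fusion, expressed without Multicilin (n = 1) or together with it (n = 1).

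The laboratory took its control libraries over from its own previous study. Group and study of origin therefore cannot be told apart wherever a perturbed group is set against the control. Comparisons among the 3 perturbed groups do not have this limit. Nothing in the labels ties replicates to separate clutches of embryos, and the p-values cover the spread among these libraries alone, which may be technical. In caps made of several cell types, fewer cells of a type and less RNA per cell cannot be told apart.

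A cell that divides makes a new centriole beside each old one, whereas a multiciliated cell makes a great many at a time, each of which becomes the basal body of a cilium. In both cases the kinase PLK4 starts the process on a platform protein, SASS6 and STIL build the cartwheel at its core, and CENPJ adds the microtubule wall. In multiciliated cells most new centrioles form around deuterosomes, structures that depend on CCDC67, now called DEUP1, a paralog of the platform protein CEP63. CCDC78 is another deuterosome protein, described first in Xenopus skin. Multicilin switches on many genes of this pathway together with E2F factors.

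Positions are on the version 7.1 scaffold assembly, counted from 1. The PLK4 models lay at scaffold 68717, 247417 to 269714 on the plus strand, and at scaffold 88765, 926891 to 945604 on the minus strand. CCDC67 lay at scaffold 151039, 908944 to 963273 on the minus strand, and CCDC78 at scaffold 375872, 90200 to 101487 on the plus strand. The platform models were CEP152 at scaffold 7479 (2818059 to 2866058, plus), CEP152 at scaffold 9266 (2778434 to 2887692, minus), CEP192 at scaffold 44494 (1064552 to 1159448, plus) and CEP63 on the same scaffold (2590269 to 2603751, minus). The cartwheel models were SASS6 at scaffold 47606 (6136966 to 6157970, minus), SASS6 at scaffold 13576 (2851782 to 2893913, plus), STIL at scaffold 276272 (1864863 to 1944300, minus) and CEP135 at scaffold 32657 (1225335 to 1262738, minus). CENPJ lay at scaffold 133669, 2460766 to 2477383 on the plus strand.

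X. laevis carries paired gene copies from a past genome duplication, and reads that match both copies were shared out by the authors' counting. Of the estimated counts of the PLK4 models, 79.1% (scaffold 68717) and 75.5% (scaffold 88765) came from reads matching that model alone. For the CEP152 models these shares were 74.2% (scaffold 7479) and 78.4% (scaffold 9266), so the split within both pairs is uncertain. The other 9 models had shares from 98.8% to 100%, both SASS6 models among them. The libraries were not stranded, and 3 models overlapped another model. PLK4 on scaffold 68717 shared 328 bp of genome with WDR49 on the opposite strand, whose mean level was 165 CPM, and STIL shared 11304 bp with CMPK1, at 1.78 CPM.

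The pair of SASS6 models are different genes by their neighbours in the RefSeq annotation (assembly Xenopus_laevis_v10.1), compared by name only. The model on scaffold 13576 shared 8 of 11 named neighbours with sass6.L and 0 with sass6.2.L. The model on scaffold 47606 shared 9 of 12 with sass6.2.L and 0 with sass6.L. The PLK4 models and the CEP152 models each had neighbours in common with both the L and the S copy of their gene.

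Estimated counts per library ranged from 8265687 to 22041279. Levels below are counts per 1000000 of the library total scaled by TMM factors (CPM), which were 0.791 to 0.916 in the controls and 1.005 to 1.189 in the perturbed libraries. With library totals in place of TMM, the median log2 difference from the control over all tested models moved from 0.01, -0.03 and 0.08 (Foxj1 CRISPR, Foxn4 CRISPR, morpholino) to 0.42, 0.23 and 0.52. Markers of multiciliated cells, 10 models in all, summed to 6010 to 9430 CPM in the controls, 3030 to 3570 in Foxj1 CRISPR, 5680 to 5740 in Foxn4 CRISPR and 4000 to 4790 in the morpholino group. Epidermal markers summed to 6920 to 9150 CPM in the controls and 6630 to 8970 over the perturbed groups. Secretory markers were at 1060 to 2760 CPM in the controls and 212 to 603 in the perturbed libraries, and markers of mesoderm and endoderm at 3.16 to 10.6 and 17.0 to 43.0. Ionocyte markers summed to 116 to 353 CPM in the controls and 191 to 366 in the perturbed libraries, and neural markers to 5560 to 11900 and 2490 to 6770. The neural sum was nearly all TUBB2B, a beta-tubulin gene (2160 to 11800 CPM), and no other neural symbol exceeded 176 CPM. Among secretory markers ITLN1 ranged from 29.3 to 2360 CPM, and no other symbol exceeded 241. These 2 sums therefore follow mainly 1 symbol each where they are high. The epidermal sum was mainly KRT8 (2940 to 6540 CPM) and GRHL3 (917 to 2540), while TP63 ranged from 10.1 to 202. Like sums there do not show that each symbol was alike. SOX2 and ATP6V0D2 had no model, and MYF5, GSC and TPH1 reached 0 in at least 1 library. The part of these differences in the results below was not tested. FOXJ1 RNA (1210 to 2160 CPM over all libraries) and FOXN4 RNA (132 to 1020) were present in every group, and neither edited DNA nor a morpholino need lower the RNA, so they do not check the labels.

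The assembly genes were strongly expressed in the control caps, with CEP192 and CEP63 as exceptions. Per transcript length, in FPKM (mean ± SD, n = 3), CCDC78 stood highest at 150 ± 29.5. It was followed by PLK4 on scaffold 68717 at 108 ± 73.8, STIL at 93.2 ± 60.5, CCDC67 at 88.8 ± 55.7, CEP135 at 80.3 ± 37.4 and PLK4 on scaffold 88765 at 74.7 ± 43.6. CENPJ at 52.0 ± 21.8 FPKM, CEP152 at 34.9 ± 22.6 (scaffold 9266) and 30.8 ± 19.1 (scaffold 7479), and SASS6 at 23.7 ± 8.61 (scaffold 47606) and 23.4 ± 7.62 (scaffold 13576) came next. From PLK4 down to SASS6, each neighbour in this order differed from the next by less than the larger of the pair's SDs. CEP192, a scaffold protein of the centrosome that recruits PLK4 in dividing human cells, reached 0.846 ± 0.233 FPKM, and CEP63 reached 0.811 ± 0.209.

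The gap between the deuterosome gene and its platform paralog was wide in every library. CCDC67 exceeded CEP63 in FPKM by a ratio of 146, 26.1 and 201 in the 3 controls, 190 and 145 in Foxj1 CRISPR, 195 and 198 in Foxn4 CRISPR, and 68.2 and 126 in the morpholino libraries. CEP63 had only 20 to 52 estimated counts per library, so its side of the ratio is imprecise.

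**Figure D1:**
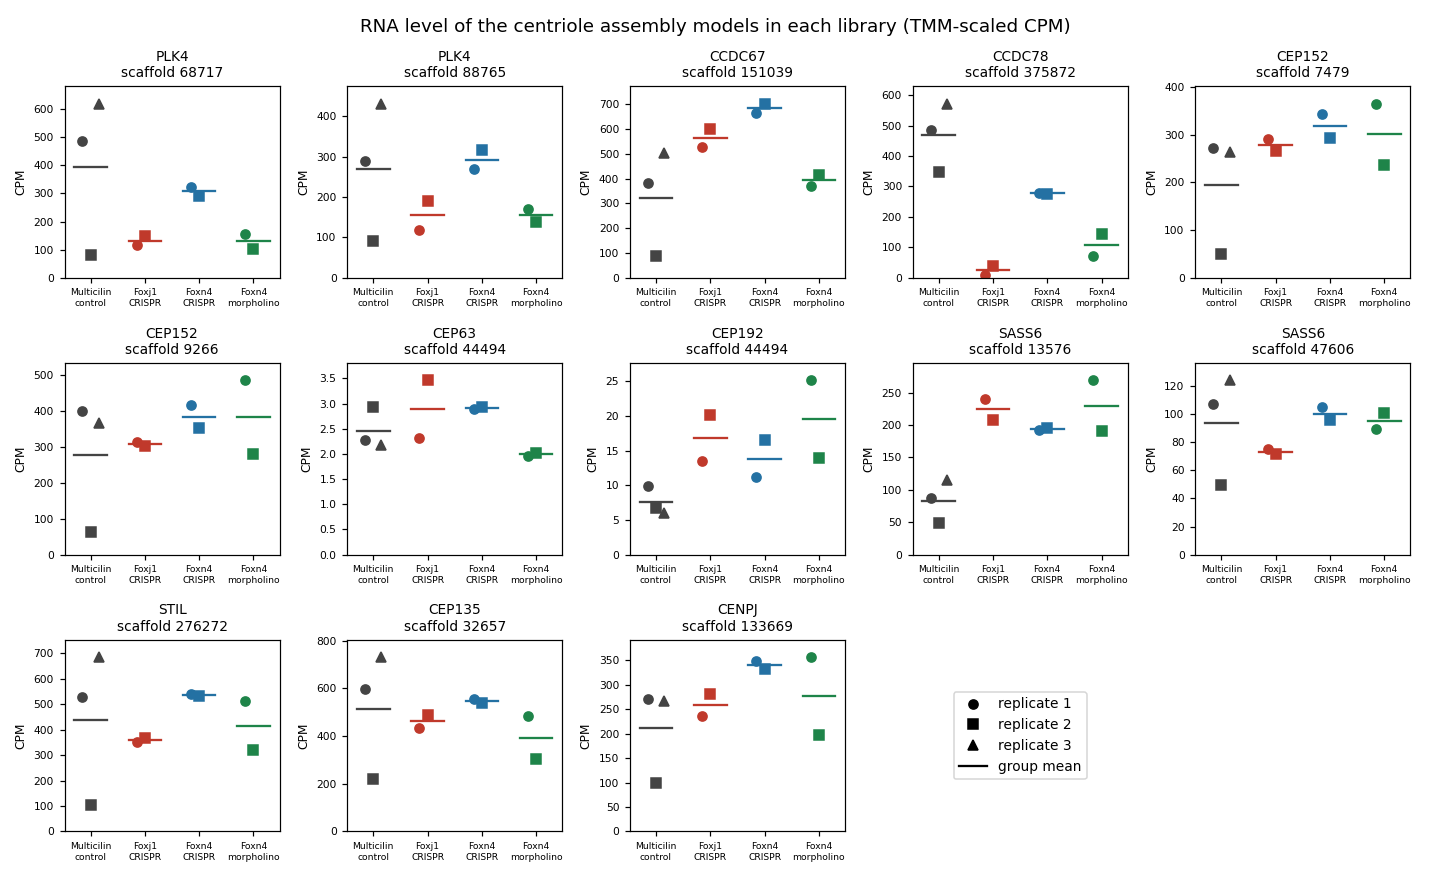
TMM-scaled CPM (vertical axis, linear, its own scale in each panel) of the 13 models in the 9 RNA libraries. Points are libraries, with the marker giving the replicate number, and lines are group means. Control replicate 2 is the lowest control for 11 of 13 models, CCDC78 is low in both Foxj1 CRISPR libraries, and SASS6 on scaffold 13576 is above every control in all 6 perturbed libraries.

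One control library stood apart for these genes. In control replicate 2, 12 of 13 models were below the geometric mean of control replicates 1 and 3, with a median ratio of 0.331, while the median over all models was 1.03. PLK4 on scaffold 68717 was at 0.145 of that mean, CEP152 at 0.163 (scaffold 9266) and 0.184 (scaffold 7479), STIL at 0.174 and CCDC67 at 0.204. The low values thus covered the kinase, the platform, the cartwheel and the deuterosome alike. CCDC78 was at 0.66, CEP192 at 0.879 and CEP63 at 1.301.

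Other gene groups moved with them in that library. Genes of centriole elongation and length control had a median ratio of 0.332, with 23 of 24 models lower, and pericentriolar genes one of 0.468, with 20 of 24 lower. All 10 multiciliated marker models were lower too, at a median of 0.613, and FOXN4 RNA was at 132 CPM against 625 and 816. Cell cycle genes were at a median of 1.27 and ionocyte markers at 2.5. Because 1 of 3 control libraries was low for most members, their comparisons with the control are given with and without it.

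The morpholino libraries also differed for most members. Replicate 2 was below replicate 1 for 9 of 13 models, with a median ratio of 0.66 against 1.012 over all models. CCDC78 went the other way, with a ratio of 1.999. In the Foxj1 CRISPR group CCDC78 likewise differed between replicates, with a ratio of 3.506 for replicate 2 over replicate 1.

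**Figure D2:**
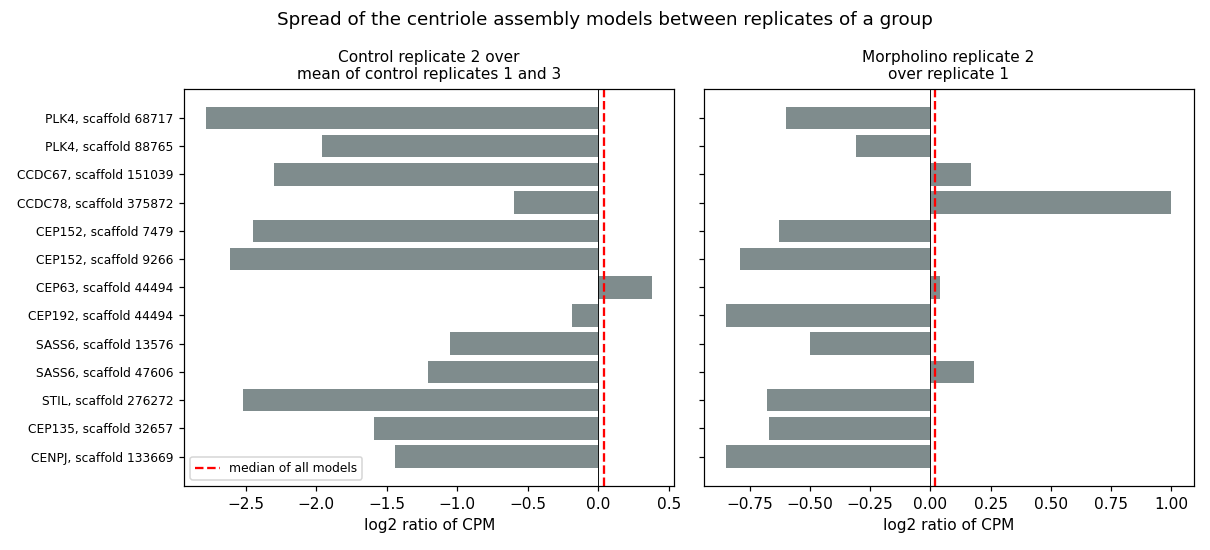
Log2 ratio of CPM (horizontal axis) between replicates of a group for the 13 models, for control replicate 2 over the geometric mean of control replicates 1 and 3 (left) and morpholino replicate 2 over replicate 1 (right). The red line is the median of all models, near 0 in both panels, and the medians of the members are -1.59 and -0.6.

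Against the control, few of the 13 models passed edgeR's quasi-likelihood test at a Benjamini-Hochberg adjusted p under 0.05 over 19058 models. In Foxj1 CRISPR caps 2 models rose and 1 fell, while 19.8% of all tested models rose and 20.7% fell. In Foxn4 CRISPR caps 1 rose and 0 fell, against 12.6% and 10.7% of all models. In the morpholino caps 2 rose and 1 fell, against 23.9% and 21.1%. In neither direction was the members' share above that of all models. The median log2 difference of the members was 0.16 in Foxj1 CRISPR, 0.29 in Foxn4 CRISPR and 0.02 in the morpholino group, and the last changed sign with another scaling (-0.06 with RLE factors). These comparisons share their controls.

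More members fell once control replicate 2 was left out, and their median log2 differences moved to -0.3, 0.01 and -0.18. That library was singled out because these same members were low in it. Leaving it out was therefore bound to raise the control level of most members and to narrow their spread. The added calls show dependence on that library and are no separate support for a fall. The same limit holds for every adjusted p-value given below without it. In Foxj1 CRISPR 1 rose and 5 fell, against 22.0% and 21.7% of all models. In Foxn4 CRISPR 1 rose and 1 fell, against 14.2% and 12.5%, and in the morpholino group 2 rose and 4 fell, against 25.0% and 22.7%.

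**Figure D3:**
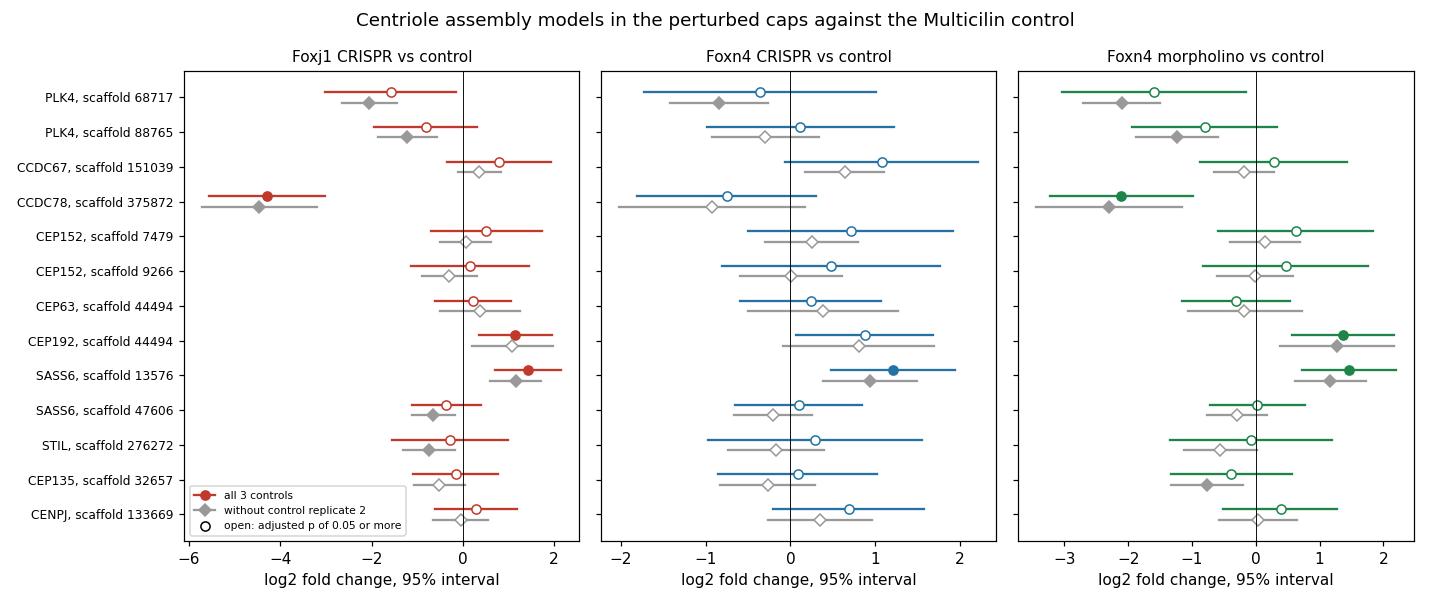
Log2 fold change against the Multicilin control (horizontal axis, its own scale in each panel) for the 13 models in Foxj1 CRISPR, Foxn4 CRISPR and Foxn4 morpholino caps, with 95% intervals. Coloured circles use all 3 controls, grey diamonds leave out control replicate 2, and filled symbols have an adjusted p under 0.05. CCDC78 at -4.28 in Foxj1 CRISPR is farthest from 0, and the PLK4 models lie left of 0 in Foxj1 CRISPR and morpholino caps with narrower intervals when the low control is left out.

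The deuterosome gene CCDC78 had the largest fall of the members. It stood at 484, 347 and 572 CPM in the controls, 10.6 and 37.5 in Foxj1 CRISPR, 280 and 275 in Foxn4 CRISPR, and 72.1 and 144 in the morpholino libraries. All 6 perturbed libraries lay below the lowest control, the Foxj1 CRISPR libraries farthest. The log2 fold change was -4.28 ± 0.57 (SE) in Foxj1 CRISPR, with a 95% interval from -5.55 to -3.01 (edgeR adjusted p = 0.000499), and -2.11 ± 0.51 in the morpholino group (interval -3.23 to -0.99, adjusted p = 0.00755). In Foxn4 CRISPR it was -0.75 ± 0.48 and did not pass (interval -1.81 to 0.3, adjusted p = 0.268). With the low control left out the 3 values were -4.46, -0.92 and -2.3, with the same calls. The Foxj1 CRISPR call held without any single library, but without morpholino replicate 1 the morpholino call was lost, at -1.7 (edgeR adjusted p = 0.0764). The sum of the multiciliated markers was also low in these groups, as given above. FOXJ1, 1 of the 6 symbols and the gene edited in Foxj1 CRISPR, did not follow the sum. It was at 2030 and 2160 CPM in Foxj1 CRISPR and 2050 and 2100 in the morpholino libraries. In the controls it was at 1690, 1210 and 2050 CPM. The low sums thus came from the other symbols, and editing need not lower FOXJ1 RNA. The part of the multiciliated markers in the CCDC78 values was not tested.

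CCDC67, the other deuterosome gene, did not fall with it. It stood at 380, 88.8 and 501 CPM in the controls, 528 and 599 in Foxj1 CRISPR, 666 and 702 in Foxn4 CRISPR, and 370 and 416 in the morpholino libraries. Both CRISPR groups lay above all 3 controls, and the morpholino group lay within their range. The log2 differences from the control were 0.8 ± 0.51 in Foxj1 CRISPR, 1.08 ± 0.51 in Foxn4 CRISPR and 0.28 ± 0.52 in the morpholino group, and none passed (edgeR adjusted p = 0.235, 0.149 and 0.68). With control replicate 2 left out they were 0.36 ± 0.21, 0.64 ± 0.21 and -0.18 ± 0.21, still not called (edgeR adjusted p = 0.188, 0.0502 and 0.509), so the size, and in the morpholino group the sign, rested on that library. Over the 9 libraries the log2 CPM of CCDC67 and CCDC78 had a Pearson r of -0.24, as a description.

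PLK4, the kinase that sets centriole number, was lower than control replicates 1 and 3 in the Foxj1 CRISPR and morpholino libraries. The model on scaffold 68717 stood at 487, 79.5 and 619 CPM in the controls, 116 and 149 in Foxj1 CRISPR, 323 and 291 in Foxn4 CRISPR, and 157 and 103 in the morpholino libraries. Control replicate 2 was lower than every perturbed library, so the groups overlapped. With all controls the log2 difference was -1.57 ± 0.65 in Foxj1 CRISPR and -1.6 ± 0.65 in the morpholino group, short of the threshold (edgeR adjusted p = 0.0754 and 0.0667). In Foxn4 CRISPR it was -0.36 ± 0.62 (adjusted p = 0.698).

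The PLK4 result depended on that 1 control library. Without it the model on scaffold 68717 fell by 2.05 ± 0.27 on the log2 scale in Foxj1 CRISPR (edgeR adjusted p = 0.000456) and fell by 2.1 ± 0.27 in the morpholino group (adjusted p = 0.000461). In Foxn4 CRISPR it then fell by 0.84 ± 0.26 (edgeR adjusted p = 0.0391). DESeq2 called it in Foxj1 CRISPR and the morpholino group with all controls in place, at log2 values of -1.63 and -1.68 (adjusted p = 0.0143 and 0.0102).

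The second PLK4 model, on scaffold 88765, was also below control replicates 1 and 3 in the Foxj1 CRISPR and morpholino libraries. It stood at 290, 90.8 and 432 CPM in the controls, 119 and 190 in Foxj1 CRISPR, 269 and 317 in Foxn4 CRISPR, and 171 and 139 in the morpholino libraries. Its log2 differences of -0.81 ± 0.51, 0.11 ± 0.5 and -0.8 ± 0.51 did not pass with all controls (edgeR adjusted p = 0.227, 0.887 and 0.221). Without control replicate 2 it fell by 1.22 ± 0.29 in Foxj1 CRISPR and fell by 1.23 ± 0.29 in the morpholino group (edgeR adjusted p = 0.00796 and 0.0071), and in Foxn4 CRISPR the value was -0.3 ± 0.28 (adjusted p = 0.461).

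Among the platform genes, CEP192 was higher in the perturbed caps, at a low level. It stood at 9.96, 6.77 and 5.96 CPM in the controls, 13.5 and 20.1 in Foxj1 CRISPR, 11.2 and 16.5 in Foxn4 CRISPR, and 25.1 and 13.9 in the morpholino libraries. All 6 perturbed libraries were above all 3 controls, on 93 to 273 estimated counts per library. It rose by 1.15 ± 0.36 in Foxj1 CRISPR and by 1.36 ± 0.36 in the morpholino group on the log2 scale (edgeR adjusted p = 0.0271 and 0.0115), and in Foxn4 CRISPR the value was 0.88 ± 0.36 (adjusted p = 0.104). The Foxj1 CRISPR call was lost without control replicate 2 or 3 or either Foxj1 CRISPR replicate, with edgeR adjusted p from 0.0507 to 0.199. The morpholino call was lost without morpholino replicate 1, at 0.87 (adjusted p = 0.133). Leaving out control replicate 2 gave 1.08, 0.81 and 1.28 in the 3 groups, of which only the morpholino value was called (edgeR adjusted p = 0.0254).

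CEP152, the platform protein that recruits PLK4 to the mother centriole in many animals, did not pass in any comparison. The model on scaffold 9266, the higher of the pair, stood at 399, 62.5 and 367 CPM in the controls, 314 and 303 in Foxj1 CRISPR, 417 and 352 in Foxn4 CRISPR, and 485 and 281 in the morpholino libraries. The perturbed values lay around control replicates 1 and 3, and control replicate 2 lay far below all of them. Its log2 differences from the control were 0.16 ± 0.58, 0.48 ± 0.58 and 0.47 ± 0.58, and those of the model on scaffold 7479 were 0.51 ± 0.55, 0.71 ± 0.55 and 0.63 ± 0.55. These differences rested on the low control, and without it they were -0.3, 0.01 and -0.01 on scaffold 9266 and 0.06, 0.25 and 0.15 on scaffold 7479. CEP63 ranged from 1.96 to 3.46 CPM over the 9 libraries, with log2 differences of 0.23, 0.24 and -0.31, and 0.38, 0.39 and -0.18 without control replicate 2, none called.

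Of the cartwheel genes, 1 of the SASS6 pair rose in all 3 perturbed groups. SASS6 on scaffold 13576 stood at 87.4, 48.3 and 115 CPM in the controls, 241 and 208 in Foxj1 CRISPR, 192 and 195 in Foxn4 CRISPR, and 269 and 191 in the morpholino libraries. All 6 perturbed libraries were above the highest control. The rise was 1.43 ± 0.33 in Foxj1 CRISPR, 1.21 ± 0.33 in Foxn4 CRISPR and 1.46 ± 0.33 in the morpholino group on the log2 scale (edgeR adjusted p = 0.00698, 0.0254 and 0.00563). With the low control left out the 3 rises were 1.16, 0.94 and 1.17, all still called.

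Some of these SASS6 calls hung on single libraries. The Foxn4 CRISPR call was lost without control replicate 1 or either Foxn4 CRISPR replicate (edgeR adjusted p = 0.0547, 0.124 and 0.118). The Foxj1 CRISPR call was lost without Foxj1 CRISPR replicate 1 (adjusted p = 0.0571), and the morpholino call without morpholino replicate 1 (adjusted p = 0.0562). In each case the log2 value remained between 1.18 and 1.31.

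The SASS6 model on scaffold 47606 did not rise. It stood at 107, 49.7 and 124 CPM in the controls, 74.9 and 71.4 in Foxj1 CRISPR, 105 and 95.8 in Foxn4 CRISPR, and 89.2 and 101 in the morpholino libraries. Its log2 differences were -0.36 ± 0.34, 0.1 ± 0.33 and 0.02 ± 0.34, none called. Without control replicate 2 it fell by 0.65 ± 0.21 in Foxj1 CRISPR (edgeR adjusted p = 0.0299), and the other values were -0.2 and -0.29. With the counts of both models summed, SASS6 passed only in the morpholino group, at 0.9 ± 0.32 (edgeR adjusted p = 0.0383), against 0.78 ± 0.32 and 0.75 ± 0.32 in Foxj1 and Foxn4 CRISPR (adjusted p = 0.0685 and 0.109).

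The balance within the SASS6 pair did not depend on the scaling of libraries, since both models were read in the same library. The log2 ratio of counts, scaffold 13576 over scaffold 47606, was -0.3, -0.04 and -0.11 in the controls, 1.69 and 1.54 in Foxj1 CRISPR, 0.87 and 1.03 in Foxn4 CRISPR, and 1.59 and 0.92 in the morpholino libraries. The 2 genes were thus at like counts in every control library, and the scaffold 13576 gene was ahead in every perturbed library. In FPKM the log2 ratio was smaller in the morpholino libraries, at 1.13 and 0.61. It was then 1.74 and 1.61 in Foxj1 CRISPR, 0.91 and 1.07 in Foxn4 CRISPR, and from -0.13 to 0.13 in the controls. Control replicate 2, low for both genes, did not stand apart in their ratio. For the ratio of counts, each group against the controls gave an exact permutation p of 0.2 (two-sided), the smallest that 3 against 2 libraries allow. All 6 perturbed libraries against the 3 controls, a comparison chosen after the values were seen, differed by 1.42 (exact permutation p = 0.0238, two-sided, 0.0714 after adjustment over the 3 symbols with pairs). The same difference was 0.21 for CEP152 (exact permutation p = 0.0476, adjusted 0.0714) and -0.49 for PLK4 (exact permutation p = 0.119, adjusted 0.119). The SASS6 value is the smallest p that 6 against 3 libraries allow. It was fixed once the ratios were seen not to overlap, so it adds no separate support. This comparison pools 3 different perturbations and sets new libraries against re-used controls. Perturbation and study of origin cannot be told apart in it.

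**Figure D4:**
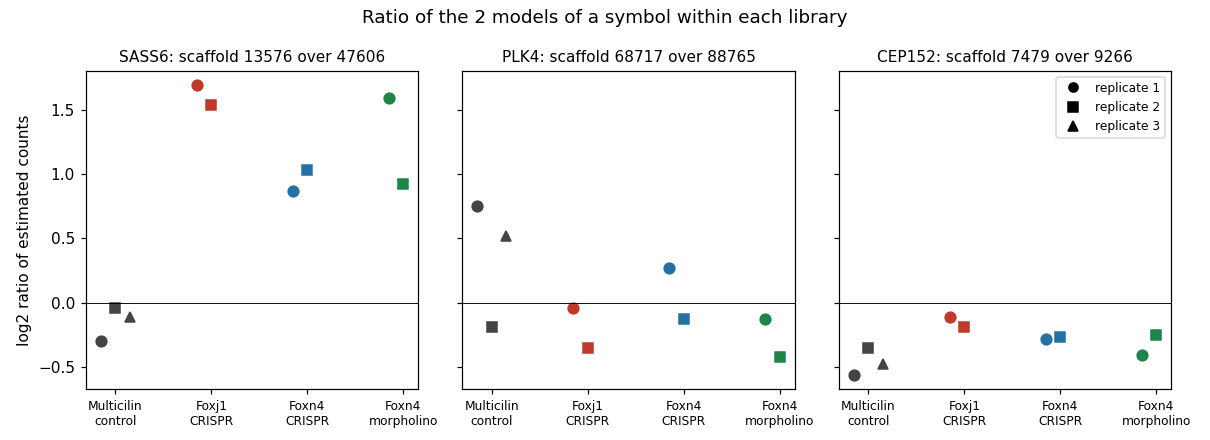
Log2 ratio of estimated counts between the 2 models of PLK4, SASS6 and CEP152 within each library (vertical axis), by group, with markers for the replicate number. For SASS6 the 3 controls lie between -0.3 and -0.04 and the 6 perturbed libraries between 0.87 and 1.69, whereas the PLK4 groups overlap.

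STIL, the partner of SASS6 in the cartwheel, stood at 527, 104 and 684 CPM in the controls, 353 and 368 in Foxj1 CRISPR, 541 and 530 in Foxn4 CRISPR, and 512 and 320 in the morpholino libraries. Its log2 differences of -0.28 ± 0.58, 0.29 ± 0.57 and -0.08 ± 0.57 did not pass. Leaving out control replicate 2, it fell by 0.74 ± 0.26 in Foxj1 CRISPR (edgeR adjusted p = 0.0411), and the Foxn4 CRISPR and morpholino values were -0.17 ± 0.25 and -0.56 ± 0.26, not called.

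CEP135, which links the cartwheel to the microtubule wall, was at 596, 219 and 731 CPM in the controls, 434 and 489 in Foxj1 CRISPR, 556 and 538 in Foxn4 CRISPR, and 484 and 304 in the morpholino libraries. No difference passed with all controls (-0.16 ± 0.42, 0.09 ± 0.42 and -0.39 ± 0.43). Once control replicate 2 was left out, it fell by 0.77 ± 0.25 in the morpholino group (edgeR adjusted p = 0.0309), with -0.52 ± 0.25 in Foxj1 CRISPR and -0.27 ± 0.25 in Foxn4 CRISPR, not called.

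CENPJ, which binds tubulin and lengthens the new centriole, was at 270, 98.9 and 266 CPM in the controls, 235 and 280 in Foxj1 CRISPR, 349 and 332 in Foxn4 CRISPR, and 356 and 198 in the morpholino libraries. Its log2 differences were 0.28 ± 0.4, 0.69 ± 0.4 and 0.39 ± 0.4, and -0.05, 0.35 and 0.03 without control replicate 2, none called. The 2 Foxn4 CRISPR libraries were above all 3 controls.

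Comparisons among the perturbed groups leave the re-used controls out of the difference. CCDC78 was higher in Foxn4 CRISPR than in Foxj1 CRISPR by 3.53 ± 0.57 on the log2 scale (edgeR adjusted p = 0.0192), with 1.43% of all tested models higher and 0.0210% lower. It was higher in the morpholino group than in Foxj1 CRISPR by 2.17 ± 0.54 (edgeR adjusted p = 0.0383), against 4.70% and 2.70% of all models. CCDC78 was the only member called in either comparison. The first call was lost without Foxj1 CRISPR replicate 1, at 2.88, or without either Foxn4 CRISPR replicate, at 3.52 and 3.54. These fits leave 1 library in a group, and almost no model of any kind was called in them. The loss was thus not particular to CCDC78. The second call was lost without control replicate 1, Foxj1 CRISPR replicate 1 or any library of the Foxn4 groups. Both were lost when replicate number was added to the fit as a block, at 3.69 and 2.23 (edgeR adjusted p = 0.0601 and 0.0527). In that fit 0 of all 19058 models were called in the first comparison, while 674 were higher and 505 lower in the second.

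Between the Foxn4 morpholino and Foxn4 CRISPR groups, which target the same gene, 0 of 13 members passed edgeR's test, while 2.65% of all models were higher and 2.82% lower. CCDC78, at -1.36 ± 0.52, was the only member with an unadjusted p under 0.05 (0.0255, edgeR adjusted p = 0.151), and DESeq2 also called 0 members. The difference in PLK4 on scaffold 68717 was -1.24 ± 0.68, with an interval from -2.75 to 0.27.

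The spread that entered these tests came in part from control replicate 2. Without it, PLK4 on scaffold 68717 was lower in the morpholino group than in Foxn4 CRISPR, with a log2 difference of -1.26 ± 0.26 (edgeR adjusted p = 0.0199), as was CCDC67 at -0.82 ± 0.21 (adjusted p = 0.0418), with 4.15% of all models higher and 5.73% lower. PLK4 was then also higher in Foxn4 CRISPR than in Foxj1 CRISPR, by 1.21 ± 0.26 (edgeR adjusted p = 0.0384), against 3.11% and 0.132% of all models. Fits to only the 2 groups compared called the same PLK4 model in both comparisons (adjusted p = 0.0339 and 0.0325), against 3.00% and 3.91% of all models in the first and 3.57% and 0.381% in the second. In the morpholino and Foxn4 CRISPR fit CCDC78 was also called, at -1.36 ± 0.33 (edgeR adjusted p = 0.0471), and CCDC67 was not (adjusted p = 0.0599). Between the morpholino group and Foxj1 CRISPR, CCDC78 was the only member called without that control (2.16 higher, edgeR adjusted p = 0.0263), against 6.71% and 4.86% of all models. In the fit to those 2 groups alone 0 members passed (CCDC78 at 2.12 ± 0.58, edgeR adjusted p = 0.065), against 4.45% and 3.39%.

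Other genes of the centriole were mostly not called with all controls in place. Of 24 tested models of elongation and length control, 3 fell in Foxj1 CRISPR, 0 in Foxn4 CRISPR and 2 in the morpholino group, and 0 rose, with median log2 values of -0.48, -0.09 and -0.47. Among all models 20.7%, 10.7% and 21.1% fell, a larger share in each case. The falls were 14, 4 and 16 of 24 once the low control was left out, against 21.7%, 12.5% and 22.7% of all models. That control was low for 23 of 24 of these models, so leaving it out was bound to raise their control level. The added falls show dependence on that library and are no separate support for a fall. From this and the following lists only the 2 largest called rises and falls per comparison with the control are named. A gene not named for a group may still have been called there. PPP1R35, a regulator of centriole elongation in human cells, was at 7.41 ± 1.79 CPM in Foxj1 CRISPR and 24.4 ± 14.8 in the controls, a log2 value of -1.72 ± 0.53, and POC5 was at -1.27 ± 0.38. In the morpholino group C2CD3, needed for distal appendages in mouse, fell by 1.4 ± 0.39 and OFD1, a distal centriole protein, fell by 1.35 ± 0.38.

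Of 25 tested models of the pericentriolar material and satellites, 1 rose and 8 fell in Foxj1 CRISPR, 0 rose and 3 fell in Foxn4 CRISPR, and 3 rose and 8 fell in the morpholino group. The medians were -0.57, -0.19 and -0.63. Without control replicate 2 the falls were 13, 5 and 16 of 25, against the shares of all models given above. The same limit holds for these added falls, since most pericentriolar models were low in that library (20 of 24). AKAP9, a scaffold of centrosome and Golgi, was at 854 ± 402 CPM in the controls (n = 3), 46.1 ± 19.9 in Foxj1 CRISPR, 290 ± 92.5 in Foxn4 CRISPR and 110 ± 29.3 in the morpholino group (n = 2 each). It fell in all 3 groups, with log2 values of -4.21 ± 0.52, -1.56 ± 0.45 and -2.96 ± 0.48 (edgeR adjusted p = 0.000358, 0.0316 and 0.00114). NEDD1, which anchors the gamma-tubulin ring, fell in Foxn4 CRISPR (log2 value -2.42 ± 0.46) and the morpholino group (-3.04 ± 0.48), and AZI1, a satellite protein, fell in Foxj1 CRISPR (-2.71 ± 0.43). TUBGCP6, a subunit of the gamma-tubulin ring, rose by 1.1 ± 0.29 in Foxj1 CRISPR. Both CEP57 models rose in the morpholino group, by 1.37 ± 0.31 and 1.12 ± 0.39, at low levels. They were at 2.18 ± 0.181 and 2.15 ± 0.671 CPM in the controls. In the morpholino group they were at 5.66 ± 0.467 and 4.68 ± 0.596 CPM.

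Centriole genes are also used in dividing cells, so cell cycle genes stand beside them. Of 47 tested models, 20 rose and 1 fell in Foxj1 CRISPR, 13 rose and 1 fell in Foxn4 CRISPR, and 26 rose and 1 fell in the morpholino group, with medians of 0.76, 0.57 and 1.11. Of all models 19.8%, 12.6% and 23.9% rose and 20.7%, 10.7% and 21.1% fell. With the low control left out 23, 16 and 26 rose and 4, 4 and 5 fell. Among all models 22.0%, 14.2% and 25.0% then rose and 21.7%, 12.5% and 22.7% fell. CCNE2, the S-phase cyclin E2, on scaffold 62229 rose from 2.69 ± 0.121 CPM in the controls to 16.4 ± 1.24, 14.6 ± 1.83 and 34.8 ± 9.83, log2 values of 2.61 ± 0.27, 2.44 ± 0.27 and 3.69 ± 0.28. The CCNE2 model on scaffold 34503 rose by 3.79 ± 1.06 in Foxj1 CRISPR and by 4.05 ± 1.06 in Foxn4 CRISPR. It was near the floor in the controls, at 1.12 ± 1.84 CPM, an SD above the mean. In the 2 CRISPR groups it was at 15.1 ± 0.487 and 18.2 ± 1.13 CPM. MCM4, a replication helicase subunit, rose by 2.87 ± 0.33 in the morpholino group. The CCNB1 (mitotic cyclin B1) model on scaffold 220499 fell in Foxj1 and Foxn4 CRISPR (-3.57 ± 0.85 and -2.68 ± 0.8). It was near the floor, at 0.957 ± 0.155 CPM in the controls and 0.0723 ± 0.102 and 0.139 ± 0.0269 in those groups. As it was the 1 cell cycle model that fell there, no other CCNB1 model was called lower. CDC20, an activator of mitotic exit, fell by 0.99 ± 0.36 in the morpholino group. The part of the cell cycle genes in the assembly genes' values was not tested.

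Of 26 tested models of multiciliated cell regulators, 3 rose and 4 fell in Foxj1 CRISPR, 2 rose and 0 fell in Foxn4 CRISPR, and 6 rose and 2 fell in the morpholino group. The shares of all models were 19.8%, 12.6% and 23.9% for rises and 20.7%, 10.7% and 21.1% for falls. With the low control left out 6, 4 and 9 rose and 5, 1 and 3 fell. All models then had 22.0%, 14.2% and 25.0% rising and 21.7%, 12.5% and 22.7% falling. MCIDAS, the Multicilin gene, was at 437 ± 296 CPM in the controls, 1370 ± 90 in Foxj1 CRISPR and 1350 ± 300 in the morpholino group, rises of 1.65 ± 0.51 and 1.63 ± 0.51. All caps had received Multicilin mRNA, and its part in these counts was not tested. TFDP1, the partner of E2F factors, rose by 1.46 ± 0.23 and 1.39 ± 0.23 in Foxj1 and Foxn4 CRISPR, and MYB, a transcription factor of early multiciliated cells, by 1.16 ± 0.34 and 1.58 ± 0.34 in Foxn4 CRISPR and the morpholino group. RFX3, a ciliary transcription factor, on scaffold 106782 fell in Foxj1 CRISPR and the morpholino group (-2.64 ± 0.52 and -1.66 ± 0.49). The RFX3 model on scaffold 105739 fell in Foxj1 CRISPR (-3.21 ± 0.64) at a low level. It was at 4.48 ± 2.21 CPM in the controls and 0.476 ± 0.367 in Foxj1 CRISPR. TP73, which acts upstream of the multiciliated program in mouse airway, fell by 1.31 ± 0.34 in the morpholino group.

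The members varied together across the 9 libraries to different degrees, given here as Pearson r of log2 CPM and as a description, since control replicate 2 and the re-used controls are shared by all points. The CEP152 pair had an r of 0.99, CENPJ and either CEP152 model 0.95, STIL and CEP152 on scaffold 9266 0.95, and STIL and CEP135 0.94. The models of other symbols most like CCDC78 were C21orf58 (0.996), AK5 (0.995) and FAM169A (0.994). For CCDC67 they were TEX261 (0.984), NFE2L3 (0.972) and C16orf59 (0.972), and for PLK4 on scaffold 68717 DNAAF2 (0.989), EIF4ENIF1 (0.986) and WDR67 (0.974).

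Foxn4 peaks lay at the starts of most assembly models. In the list from Foxn4 given alone, 11 of 13 models had a peak centre within 1000 bp of their 5′ start, against 53.3% of all models and 63.9% of the models tested for RNA. With Multicilin present, 8 of 13 did, against 31.4% and 38.9%. All 8 had a peak in both lists, and the paired peaks overlapped. Whether the paired peaks overlapped was checked for the members only. A start peak in both lists was also found for 7391 of the 7661 models of any kind with one in the Multicilin list. Among such models the members thus did not stand apart. Over all models, with or without a peak, 30.3% had one in both lists, against 8 of 13 members. At the 3′ ends 0 of 13 members had a peak in either list, against 4.04% and 1.99% of all models. The lists held 65258 and 29673 peaks from 1 library each, so their difference in length has no replicate check, and heights are the authors' tags scaled to 10000000 per library.

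CEP135 had the tallest start peak in both lists. With Foxn4 alone its centre lay 37 bp inside the start (scaffold 32657, 1262531 to 1262871) at 373.6 scaled tags, within the top 0.619% of that list. With Multicilin it reached 313.5, within the top 0.179% and at rank 53. Its RNA did not pass with all controls in any comparison.

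The PLK4 starts stood higher within the list made with Multicilin. On scaffold 68717 the peak (247728 to 248004, 449 bp inside the start) had 201.6 scaled tags and rank 197, the top 0.664%. On scaffold 88765 the peak (944588 to 944864, 878 bp inside the start) had 138.4 scaled tags and rank 664, the top 2.24%. In the list from Foxn4 alone the corresponding peaks had 74.4 and 75.8 scaled tags and lay within the top 17.4% and 17%. Ranks in lists of different length show no change.

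Both deuterosome genes carried a peak just upstream of the start. For CCDC67 the centre lay 180 bp upstream with Foxn4 alone (scaffold 151039, 963283 to 963623, 88.0 scaled tags) and 112 bp upstream with Multicilin (93.7). For CCDC78 it lay 81 bp upstream (scaffold 375872, 89949 to 90289, 42.0 scaled tags) and 97 bp upstream (46.8). CCDC78 RNA fell in the morpholino group but was not called in Foxn4 CRISPR, and its largest fall was in Foxj1 CRISPR. CCDC67 RNA did not pass in either Foxn4 group against the control. A start peak was thus found at members with and without a called change.

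CENPJ had peaks 282 and 290 bp upstream, at 70.4 and 103.8 scaled tags. Both SASS6 genes had peaks in both lists, at 35.2 and 38.7 scaled tags for the gene on scaffold 13576 and at 39.3 and 30.5 for that on scaffold 47606. The peaks were thus of like height in scaled tags at the SASS6 gene that rose and at the one that did not. Over input they were weak, where calling required 4-fold. They reached 5.55-fold with Foxn4 alone and 9.15-fold with Multicilin on scaffold 13576, and 5.3-fold and 5.78-fold on scaffold 47606. CEP152 on scaffold 7479 (40.6 scaled tags), CEP192 (29.8) and STIL (13.5, from 10 tags) had a start peak in the list from Foxn4 alone only. The library with Multicilin was smaller, at 4911853 tags against 7387992, with 11.86% of tags in peaks against 33.51%. A peak missing from its list therefore cannot be read as lost binding. STIL had a taller peak inside the gene in both lists, 52514 and 52598 bp from the start, at 147.5 and 130.3 scaled tags. CEP152 on scaffold 9266 and CEP63 had no peak within 1000 bp, and the nearest to CEP63 lay 3492 and 3624 bp upstream.

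**Figure D5:**
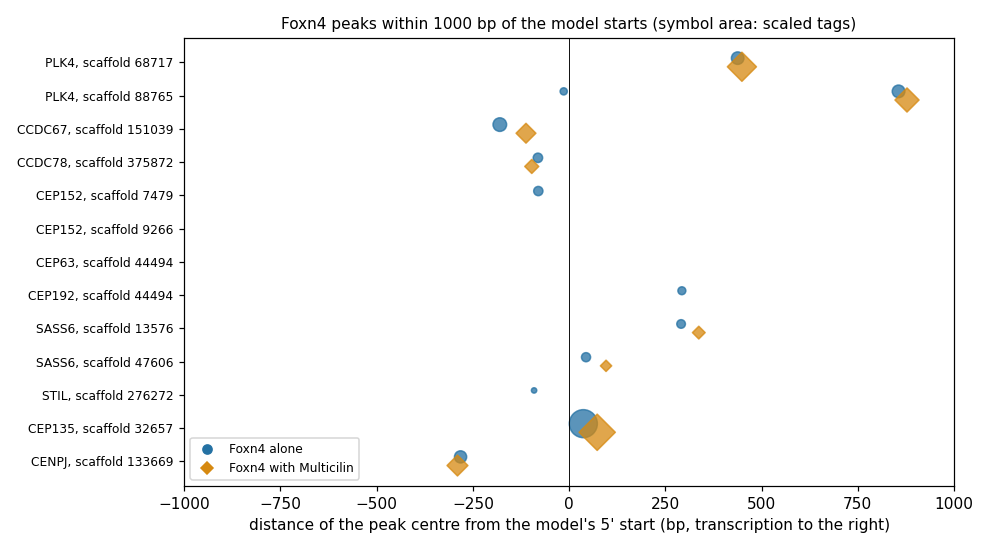
Foxn4 peaks within 1000 bp of the 5′ start of each model, by distance of the peak centre from the start (horizontal axis, in bp, transcription to the right), for Foxn4 alone (circles) and Foxn4 with Multicilin (diamonds). Symbol area follows the authors' scaled tags, from 13.5 at STIL to 373.6 at CEP135, and CEP152 on scaffold 9266 and CEP63 have no symbol.

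In the authors' deposited tables, 2 members had an adjusted p under 0.05 in Foxj1 CRISPR (CCDC78 and SASS6 on scaffold 13576). In Foxn4 CRISPR 0 did, and in the morpholino group 1 did (CCDC78). The share of all models under 0.05 in the same tables was not computed. Whether members were called more or less often than other models there therefore cannot be read from these counts. The Foxj1 CRISPR table also rests on more control libraries than the other tables, so its count is not directly comparable with theirs. The authors' deposited log2 values, turned here to perturbed over control, were -4.28 and -1.65 for CCDC78 in Foxj1 CRISPR and the morpholino group (deposited adjusted p = 1.41e-11 and 0.0158). For SASS6 on scaffold 13576 the authors' deposited tables gave 1.13, 1.08 and 1.07 in Foxj1 CRISPR, Foxn4 CRISPR and the morpholino group (deposited adjusted p = 0.0284, 0.0634 and 0.104).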

How the data were processed

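RNA was measured in 9 libraries of 4 groups and Foxn4 binding in 2 ChIP libraries. No use was made of the 6 ChIP input libraries. eXpress wrote the authors' RNA files, per the file headers, which hold for each gene model an estimated count with shared reads split between models, counts of unique and of all matching reads, FPKM and TPM. The reads were matched to Mayball gene models and genome version 7.1, per the labels, and the submitters' processing notes name the tools STAR, eXpress, DESeq, HOMER and Bowtie2, with versions not given in the sources used here. Comparison tables deposited by the authors hold signal columns of mean normalized counts, a fold ratio, its log2 and p-values. Their log2 runs control over perturbed, and the Foxj1 table rests on more control libraries than the 3 here, since the perturbed group had a weight of 0.286 in its mean against 0.4 in the others. Peaks were called by the authors in each library with HOMER, per the file headers, at a false discovery rate of 0.001, 4-fold over input and 4-fold over the surrounding 10000 bp, against the same input, and give scaled tags, a score, fold values and p-values.

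For testing, estimated counts were rounded and entered in edgeR 4.0.16 under R 4.3.3 (TMM, default low-count filter, quasi-likelihood test, all 9 libraries in 1 fit with group as the only term, 5 residual degrees of freedom, biological coefficient of variation 0.31). Rounding aside, counts were used as deposited. The threshold was an adjusted p under 0.05 (Benjamini-Hochberg over 19058 models), and the script was tested on simulated data. Intervals are 95% by the t quantile. Chi-square tests of counts found no pair of replicates equal within sampling noise. DESeq2 1.42.0, RLE scaling, no low-count filter, other read counts, a replicate block, smaller fits and leaving out each library were alternatives. Library totals without TMM, the copy ratio over all 6 perturbed libraries and every result without control replicate 2 beside the main one were chosen after seeing the data. Values are given in each library for every called model and for the highest model of each symbol, and from each other list the 2 largest called rises and falls per comparison with the control are named. The members and lists were chosen with earlier results of these data known.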

Additional observations from a re-analysis of the deposited data

How the results depend on the processing

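The 9 called single-model values were recomputed under every alternative. Of 162 values, 135 kept direction and call, 27 kept direction only and 0 reversed. The number of members called was 3 in Foxj1 CRISPR, 1 in Foxn4 CRISPR and 3 in the morpholino group against the control, and 1 (Foxn4 against Foxj1 CRISPR), 1 (morpholino against Foxj1 CRISPR) and 0 (morpholino against Foxn4 CRISPR) among the perturbed groups. With each library left out in turn these counts ranged from 1 to 6, 0 to 2, 0 to 6, 0 to 2, 0 to 1 and 0 to 2. Against the control, library totals in place of TMM called 4, 2 and 3 members in Foxj1 CRISPR, Foxn4 CRISPR and the morpholino group. CEP192 was the one added in Foxn4 CRISPR. Of all 19058 models, 5903 rose and 2642 fell in Foxj1 CRISPR with library totals. In Foxn4 CRISPR 3456 rose and 1264 fell, and in the morpholino group 6848 rose and 2667 fell. The members' median log2 differences were then 0.62, 0.6 and 0.49, beside 0.42, 0.23 and 0.52 over all tested models. With only the 2 groups compared in the fit, the 3 comparisons among perturbed groups called 2, 0 and 2 members. The cause was not tested.

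The replicate block called 2, 1 and 2 members against the control and 0 in Foxn4 against Foxj1 CRISPR and in morpholino against Foxj1 CRISPR. Of all 19058 models, 2930 rose and 3360 fell in Foxj1 CRISPR, 1764 and 1518 in Foxn4 CRISPR, and 3695 and 3526 in the morpholino group. In the last 2 comparisons 0 of all models were called in the first, and 674 rose and 505 fell in the second. The block ended the CEP192 calls in Foxj1 CRISPR and the morpholino group (edgeR adjusted p = 0.102 and 0.0566). It also ended the CCDC78 calls of the last 2 comparisons (edgeR adjusted p = 0.0601 and 0.0527). Same-numbered samples of control and perturbed groups did not deviate together (correlations -0.24, -0.07 and -0.15). Those of Foxj1 and Foxn4 CRISPR did, with a correlation of 0.67 over 12797 models. The other pairs of perturbed groups had 0.27 and 0.14. With only 2 shared numbers per pair of groups, these values cannot decide whether the numbers pair samples.

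The median of the members in the morpholino group, 0.02, was -0.06 with RLE scaling and -0.37 with all matching reads. It was 0.17 with uniquely matching reads and 0.57 with the replicate block. The block also moved the medians of Foxj1 and Foxn4 CRISPR from 0.16 and 0.29 to 0.45 and 0.75. PLK4 on scaffold 68717 was called in the morpholino group without a low-count filter. Start peaks within 500 bp were found for 11 and 7 of 13 members, against 49.2% and 28.9% of all models. Within 5000 bp they were found for 12 and 9, against 65.6% and 40.8%. With at least 8-fold over input they were found for 9 and 7, against 45.4% and 26.5%. Depth limits CEP63 and CEP192 most.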
